A study of Mus musculus with 4 samples.

Results

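Ion channel genes were followed through the endocrine cells of the mouse intestinal epithelium: Abcc8, Kcnj11, Cacna1a, Cacna1c, Cacna1d, Scn3a, Scn9a and Kcnb2. They were taken by symbol, and all 8 of them were found as 1 row each among the 31054 features of the count matrices. RNA had been measured in single cells on the 10x Chromium platform, from the 3′ ends of transcripts, in 4 libraries of epithelial cells sorted from mice carrying Bmi1-GFP, a reporter of the Polycomb gene Bmi1. Of these libraries 1 was made at E12.5 and 1 at E17.5 (days of embryonic development), 1 from adult intestine and 1 from adult intestine after irradiation. All 4 groups carried the same reporter, each group was 1 library, and the labels give no irradiation dose, no time after irradiation and no number of animals, nor do they say whether the sort used GFP in every library.

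Endocrine cells of the gut epithelium are electrically excitable: nutrients or other stimuli depolarise them, calcium enters through voltage-gated channels, and hormone granules fuse with the membrane. The KATP channel couples this to metabolism, since it is open at rest and closes when ATP rises. Abcc8 encodes its sulfonylurea receptor subunit SUR1 and Kcnj11 its pore Kir6.2. Cacna1a (P/Q-type), Cacna1c (L-type, Cav1.2) and Cacna1d (L-type, Cav1.3) encode pores of voltage-gated calcium channels. Scn3a (Nav1.3) and Scn9a (Nav1.7) encode pores of voltage-gated sodium channels, and Kcnb2 (Kv2.2) encodes a delayed rectifier potassium channel that helps to repolarise the cell.

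In the GRCm38 annotation (GENCODE M21), Abcc8 (chr7:46104523-46180033) and Kcnj11 (chr7:46093953-46100764) are neighbours on the minus strand with 3758 bases between them. Scn3a (chr2:65457118-65567627) and Scn9a (chr2:66480080-66634962) lie on the minus strand of the same chromosome. Cacna1a lies at chr8:84388440-84640246 and Kcnb2 at chr1:15287254-15723750, both on the plus strand. Cacna1c (chr6:118587240-119196418) and Cacna1d (chr14:30039939-30491455) lie on the minus strand and span other genes of the opposite strand, among them Dcp1b within Cacna1c and Chdh and Dcp1a within Cacna1d. Whether the counting used strand is not given in the sources used here, so reads of Cacna1c and Cacna1d cannot be told apart from reads of these partners if it did not.

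Promoter sequences from RefSeq (GRCm38.p6) were at hand for 3 of the 8 genes, Scn9a, Cacna1c and Cacna1d, and 4 of their 6 promoters are printed to show how unlike they are in base composition. Each is the 250 bases before the transcript's start, on the minus strand, written 5′ to 3′. Capitals mark CAGATG or CAGCTG, searched on both strands (CATCTG being the reverse of the first). These are 2 forms of the E-box, the motif of basic helix-loop-helix factors such as the endocrine factor Neurod1.
Scn9a, chr2:66634963-66635212: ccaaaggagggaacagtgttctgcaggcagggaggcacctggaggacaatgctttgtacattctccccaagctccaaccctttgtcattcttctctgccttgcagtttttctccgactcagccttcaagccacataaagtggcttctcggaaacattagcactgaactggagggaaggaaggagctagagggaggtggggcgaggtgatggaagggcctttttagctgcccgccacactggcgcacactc
Cacna1c, chr6:119108496-119108745: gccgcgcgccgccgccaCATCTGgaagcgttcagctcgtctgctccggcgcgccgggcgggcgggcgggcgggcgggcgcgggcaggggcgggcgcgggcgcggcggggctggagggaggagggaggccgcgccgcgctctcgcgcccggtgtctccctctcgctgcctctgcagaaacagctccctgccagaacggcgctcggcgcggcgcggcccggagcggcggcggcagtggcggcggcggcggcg
Cacna1c, chr6:118757975-118758224: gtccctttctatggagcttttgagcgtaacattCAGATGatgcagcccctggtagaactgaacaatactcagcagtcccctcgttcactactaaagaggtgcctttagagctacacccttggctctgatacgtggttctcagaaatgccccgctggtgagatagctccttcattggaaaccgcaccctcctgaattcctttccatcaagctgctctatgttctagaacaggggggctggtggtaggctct
Cacna1d, chr14:30353487-30353736: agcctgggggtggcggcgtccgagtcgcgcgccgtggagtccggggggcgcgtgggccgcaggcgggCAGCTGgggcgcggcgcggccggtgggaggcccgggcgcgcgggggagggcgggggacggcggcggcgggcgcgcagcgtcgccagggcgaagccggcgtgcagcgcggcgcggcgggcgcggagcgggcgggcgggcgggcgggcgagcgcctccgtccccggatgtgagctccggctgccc

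The GC content of these windows was 54.4% for Scn9a, 82.8% and 50.4% for the Cacna1c promoters and 86.4% for Cacna1d, against a median of 52.4% over 32851 promoters of the same length. The Scn9a window held neither motif. Each printed Cacna1c window held 1 match to CAGATG or its reverse, a motif present in 14.4% of all promoters. The printed Cacna1d window held 1 match to CAGCTG, present in 13.0% of all promoters. The promoters not printed, a further one of Cacna1c (51.6% GC) and of Cacna1d (39.6% GC), held neither motif.

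A cell was kept if it had 500 or more detected genes and no more than 20% of its UMIs from mitochondrial genes (UMIs, unique molecular identifiers, each stand for 1 captured RNA molecule). A kept cell was called chromogranin-high when Chga and Chgb, which encode granin proteins of hormone granules, made up at least 0.1% of its UMIs. There were 13 such cells among the 4226 kept at E12.5, 1655 among 4602 at E17.5, 2612 among 3788 for the adult and 2855 among 3184 for the irradiated adult. This is a range of a continuous measure and not a cell type. From 0.1% to 0.2% lay 6, 289, 369 and 180 cells in the same order, and from 0.05% to 0.1%, just outside, lay 3, 140, 312 and 105.

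The chromogranin-high cells carried the other marks of endocrine cells: all 11 of a list of enteroendocrine genes without Chga and Chgb (among them Neurod1, Isl1, Insm1 and Scg3) were detected in each library, with a summed level of 3754 to 5876 CPM (counts per 1000000 UMIs) against 63.0 to 142 CPM in the remaining cells. Other cell types were present. By thresholds on marker genes set after seeing the data, 186 chromogranin-high cells at E17.5 and 2 at E12.5 carried pancreatic islet markers, and 229 adult and 381 irradiated chromogranin-high cells carried tuft cell markers. Among the remaining cells 844 of 1176 adult and 132 of 329 irradiated cells carried tuft markers, while 538 of 2947 at E17.5 carried pancreatic acinar markers. Cells with neuron and glia markers numbered 2 at E12.5 and 3 at E17.5 outside the chromogranin-high class and 1 within it in the irradiated library. The 11 genes of that list summed to 132 to 154 CPM in the class, with 2 to 5 of them at 0, and to 27.2 to 77.0 CPM outside it. The 3 genes of a list for interstitial cells of Cajal (Kit, Ano1 and Etv1) summed to 151 to 365 CPM against 19.1 to 39.6 CPM, with 2 cells carrying them at E17.5, outside the class. The part of either list in the results was not tested. Paneth cell genes made up 99346 and 215670 CPM of the remaining cells of the adult and irradiated libraries, against 7767 and 21921 CPM of the class. Median UMIs per cell were 10192, 7860, 3212 and 8522 in chromogranin-high cells and 18656, 18551, 4864 and 15800 in the rest, in the order of the libraries above. Median mitochondrial shares were 2.35% to 7.98% and 4.15% to 12.5% respectively. The libraries shared between 1 and 7 kept barcodes, at most 0.185% of the smaller library.

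The first question was whether the channel genes were higher in chromogranin-high cells than in the remaining cells of the same library. All 8 were in the test over the 4 libraries, although Scn3a and Scn9a were at 0 UMIs in the E12.5 class. UMIs were summed per library and class, which gave 8 summed profiles, and tested with edgeR's quasi-likelihood test with the library as a block and Benjamini-Hochberg adjustment over 18555 features. All 8 genes passed an adjusted p of 0.05 in the higher direction, where 12.4% of all features tested did so and 16.4% were lower. The median log2 difference of the 8 genes was 4.05, beside a median of -0.10 over all features. The 4 libraries stand in for replicates here although they differ in stage and treatment, so the p-values measure how far the class difference repeats across those conditions. The genes had been picked for their role in endocrine cells, with earlier results of these data known, and their joint direction is a description.

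Abcc8 reached 493, 176, 138 and 108 CPM in chromogranin-high cells in the E12.5, E17.5, adult and irradiated libraries, against 2.34, 7.86, 7.68 and 5.40 CPM in the rest. The classes were far apart in every library, and the fitted log2 difference was 4.47 ± 0.66 (SE; edgeR adjusted p = 0.00302). Here and below this SE is the size of the log2 difference divided by the square root of the quasi-likelihood F statistic. The levels of its partner Kcnj11 were 13.5, 23.4, 26.2 and 19.0 CPM against 1.23, 1.36, 1.46 and 0.736 CPM, a difference of 3.63 ± 0.32 (edgeR adjusted p = 0.000773). The E12.5 value of Kcnj11 rests on 2 UMIs, with a ratio of 11.0 to the rest (95% counting interval 1.32 to 40.8).

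Among the calcium channel pores, Cacna1a stood at 149, 163, 525 and 395 CPM against 40.6, 12.8, 31.9 and 16.9 CPM, with a log2 difference of 3.04 ± 0.40 (edgeR adjusted p = 0.00213). The smallest ratio was at E12.5, 3.66 (2.29 to 5.55), where the remaining cells already held 3608 UMIs of Cacna1a in 1938 of 4213 cells. Cacna1d stood at 33.8, 27.9, 42.9 and 27.2 CPM against 1.21, 4.21, 2.03 and 0.409 CPM, a difference of 3.68 ± 0.43 (edgeR adjusted p = 0.0016). Cacna1c had the smallest difference of the 8 genes, 2.11 ± 0.38 (edgeR adjusted p = 0.00663), from 6.75, 5.04, 27.0 and 13.9 CPM against 0.236, 1.16, 5.46 and 1.23 CPM. Its E12.5 level is 1 UMI, and the ratio of 28.6 there has an interval of 0.692 to 178.

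Scn3a was not seen in the 13 chromogranin-high cells at E12.5, where 3 UMIs would have been 20.3 CPM, and stood at 110, 182 and 192 CPM in the later libraries against 1.21, 2.92 and 3.60 CPM in the rest. Its log2 difference of 5.38 ± 0.44 (edgeR adjusted p = 0.000701) was the highest of the 8 fitted values. Scn9a was also at 0 UMIs at E12.5 and stood at 15.0, 2.78 and 6.10 CPM later. The remaining cells held 0.868 CPM of Scn9a at E17.5, 1 UMI in the adult and none in the irradiated library, where chromogranin-high cells were at least 24.9-fold higher taking 3 UMIs as the floor. Its difference was 4.41 ± 0.68 (edgeR adjusted p = 0.00358). Kcnb2 stood at 60.8, 65.3, 187 and 140 CPM against 1.99, 2.70, 5.08 and 2.54 CPM, a difference of 4.55 ± 0.22 (edgeR adjusted p = 0.000306).

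**Figure D1:**
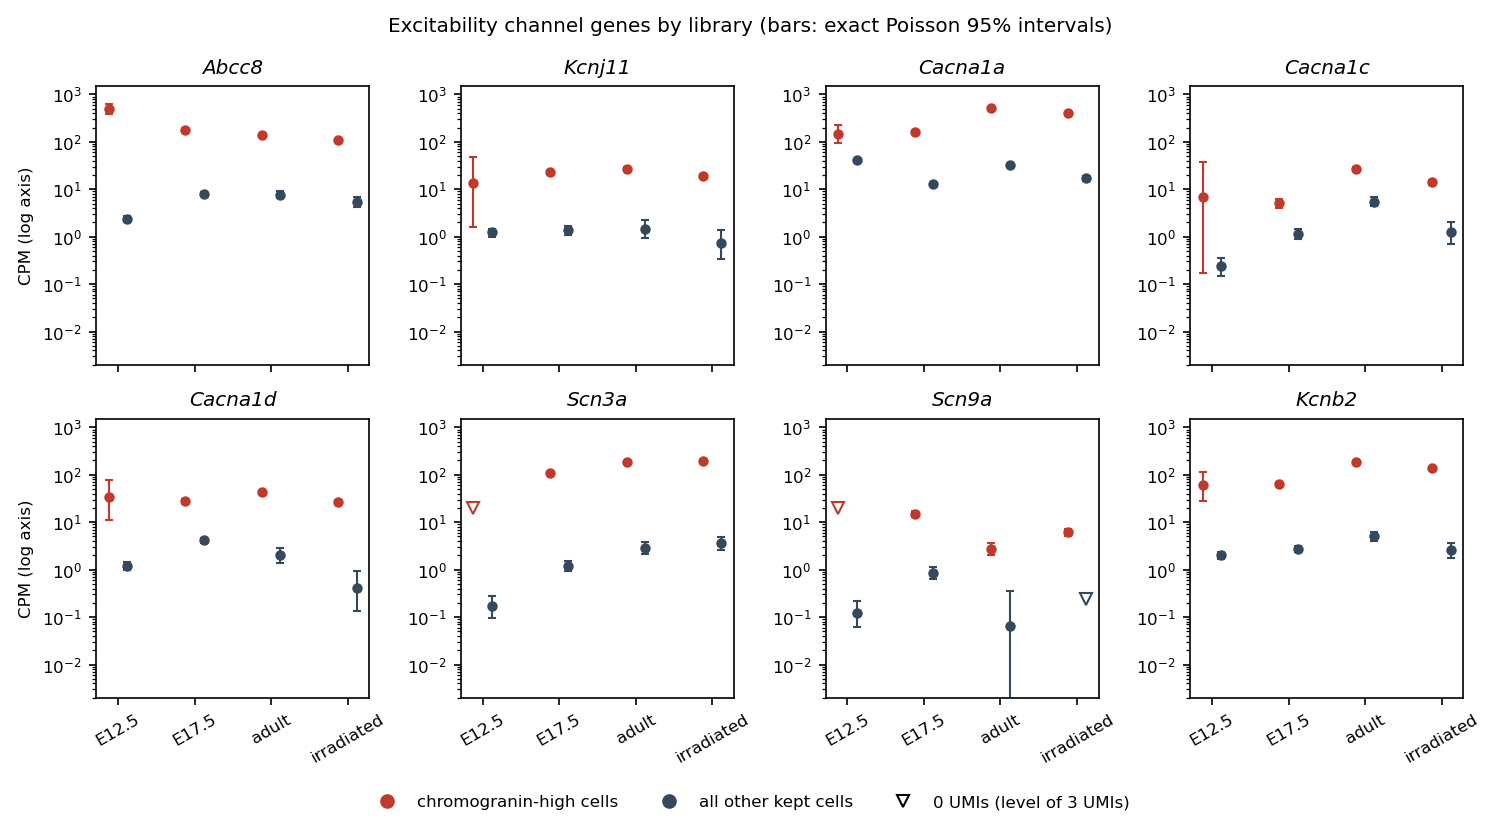
CPM of each gene (log axis) in the 4 libraries, in chromogranin-high cells (red) and the remaining kept cells (dark), with exact Poisson 95% intervals; open triangles mark 0 UMIs, drawn at the level of 3 UMIs. All 8 genes lie higher in the red class in the E17.5, adult and irradiated libraries, and 6 of 8 at E12.5.

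Within single libraries there is no test, since each group is 1 library, and a ratio of 2-fold on the CPM + 1 scale was used instead. In the E17.5, adult and irradiated libraries 8 of 8 genes were past 2-fold higher, where 15.8%, 24.7% and 37.4% of features were. At E12.5 the count was 6 of 8, where 19.8% of features were, and the other two were the sodium channel genes at 0 UMIs. Calls in the test over libraries depended on the threshold and on the block. With 0.5% in place of 0.1%, which moves endocrine cells of lower chromogranin content into the rest, 4 of 8 were called, and the log2 differences of the other 4 were 0.66 to 1.83. Features called higher were then 1183, in place of 2303. Without the library block 5 of 8 were called, while the differences of Cacna1c, Scn3a and Scn9a, which were not, were 2.13, 5.30 and 4.29. In that fit 320 features were called higher. Without the irradiated library Cacna1c was not called (log2 difference 2.08, edgeR adjusted p = 0.052).

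The genes were not alike across steps of chromogranin content. Abcc8 was at 39.2 CPM in adult cells with 0.05% to 0.1% chromogranin, at 212 CPM at 0.2% to 0.5% and at 37.6 CPM in the 619 cells with 2% or more. Scn3a went the other way, with 39.5 CPM at 0.1% to 0.2% and 410 CPM at 2% or more. At E17.5 the same top step had 104 CPM of Abcc8 and 418 CPM of Scn3a, and in the irradiated library 70.3 and 330 CPM. In E17.5 cells just below the threshold, at 0.05% to 0.1%, Abcc8 was already at 144 CPM and Kcnj11 at 21.6 CPM, whereas Scn3a was at 17.6 CPM.

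**Figure D2:**
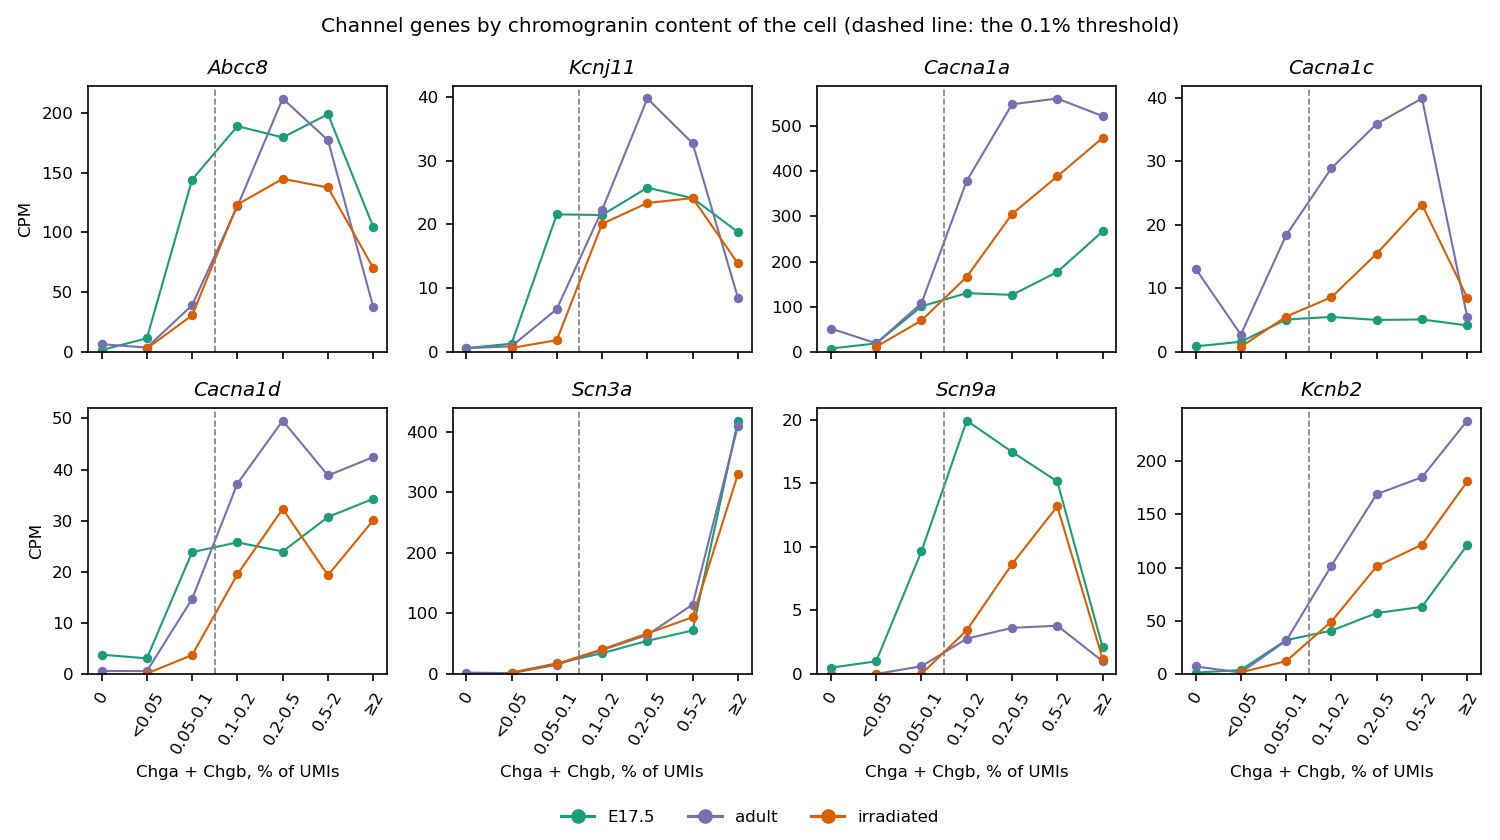
CPM of each gene against the share of Chga and Chgb in a cell's UMIs, in steps, for the E17.5 (green), adult (purple) and irradiated (orange) libraries; steps with fewer than 20 cells are not drawn. Abcc8, Kcnj11, Cacna1c and Scn9a are lower in the top step than in the step below it, and Scn3a and Kcnb2 are highest in the top step in all 3 libraries.

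Chromogranin-high cells were then divided by the hormone gene that led them. A cell was given the hormone with the highest share if that reached 1% of its UMIs. Cells led by Sct, Tac1 or no hormone with at least 2 UMIs and 0.05% of Tph1, the enzyme of serotonin synthesis, were called Tph1 cells. Other cells led by Tac1 were counted among the cells with no leading hormone. The hormones are somatostatin (Sst), the incretin Gip, ghrelin (Ghrl), secretin (Sct), cholecystokinin (Cck) and neurotensin (Nts). These rules were set with the data in view and use none of the 8 channel genes. The 7 groups with a leading hormone or Tph1 and at least 20 cells in each of the 3 later libraries were compared. Cells with no leading hormone (204, 230 and 253 cells) were left out of the order, as were groups that reached 20 cells in fewer libraries, such as Pyy cells at E17.5. Where a mean is given it is over those 3 libraries, which differ in stage and treatment. The E12.5 library had no group of more than 6 cells.

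**Figure D3:**
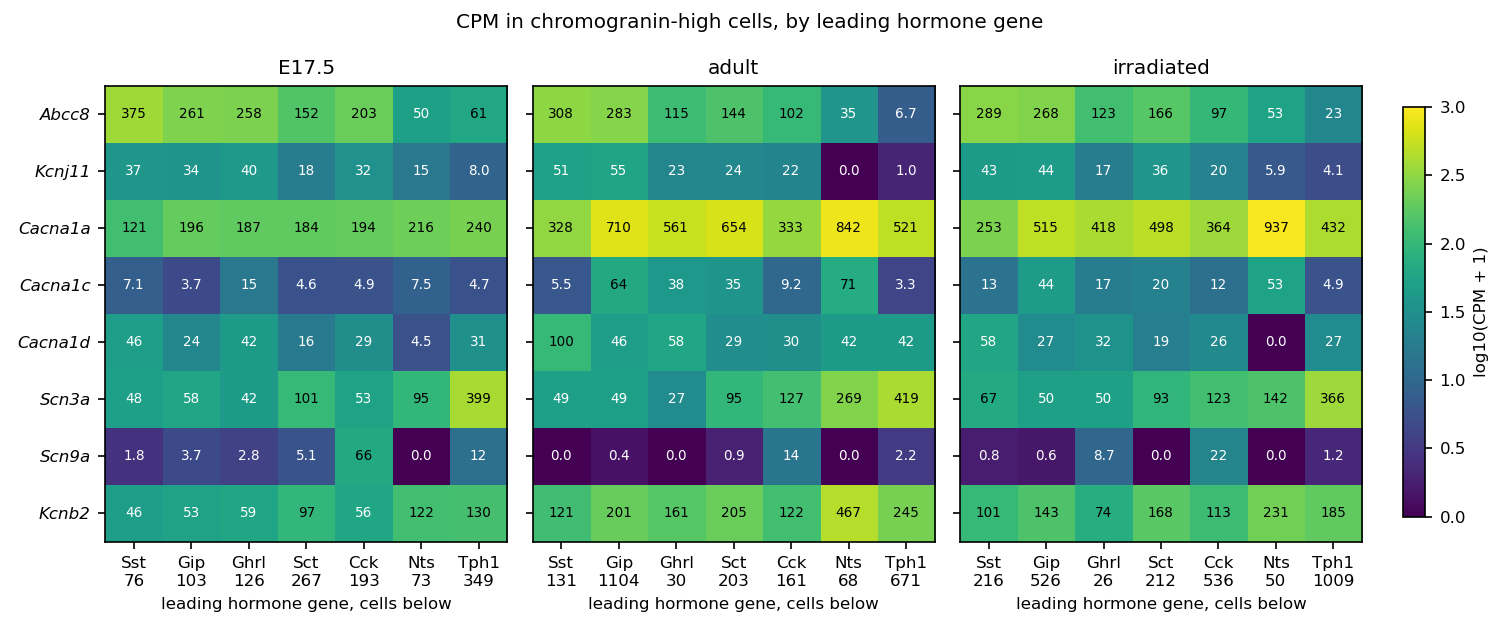
CPM of the 8 genes (rows) in chromogranin-high cells by leading hormone gene (columns, with the number of cells), for the E17.5, adult and irradiated libraries; colour is log10 of CPM + 1 and the number in each field is the CPM. By the mean over libraries Abcc8 and Kcnj11 are highest in Sst and Gip cells and lowest in Nts and Tph1 cells, Scn3a is highest in Tph1 cells, and Scn9a in Cck cells.

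Of the 7 groups Sst cells had the highest levels of Abcc8, at 375, 308 and 289 CPM in the E17.5, adult and irradiated libraries (mean 324 ± 44.8, SD, n = 3 libraries). Gip cells followed at 261, 283 and 268 CPM (271 ± 11.7), and the 2 ranges did not overlap. Outside these groups, the 82 Pyy cells at E17.5 had 511 CPM, and cells with no leading hormone had 78.0, 9.92 and 14.7 CPM. Ghrl, Sct and Cck cells came next with means of 166 ± 80.3, 154 ± 11.3 and 134 ± 59.8 CPM, ranges that overlap. Nts cells (46.1 ± 9.49) and Tph1 cells (30.1 ± 27.9) were lowest and overlapped each other. Tph1 cells had 60.9, 6.72 and 22.7 CPM. The ratio of Gip to Tph1 cells was 4.28 (95% counting interval 3.49 to 5.27) at E17.5, 42.2 (29.9 to 61.5) in adult cells and 11.8 (10.3 to 13.6) after irradiation.

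Kcnj11 followed its partner across the groups. Its levels in Gip cells were 34.3, 55.0 and 43.7 CPM and in Sst cells 37.5, 50.6 and 42.7 CPM, ranges that overlap. At E17.5 Ghrl cells (39.6 CPM) and Pyy cells (40.9 CPM) lay above both. Tph1 cells had 8.04, 1.02 and 4.12 CPM. Gip cells were 4.27 times (2.39 to 7.86) the Tph1 cells at E17.5, 54.0 times (22.9 to 168) in adult cells and 10.6 times (7.57 to 15.1) after irradiation, close to the ratios of Abcc8 in each library.

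The share of cells with a UMI gave the same picture when every cell was thinned to 2000 UMIs. Abcc8 was detected in 45.5% (exact binomial 95% interval 35.4% to 55.8%) of the 99 Gip cells of the E17.5 library, 50.8% (47.2% to 54.4%) of the 769 adult ones and 46.9% (41.9% to 52.0%) of the 388 irradiated ones. In Tph1 cells the shares were 7.25% of 345, 0.971% of 618 and 4.53% of 971. The remaining, chromogranin-low cells had 2.83%, 2.51% and 3.12%, so the adult share in Tph1 cells was no higher than theirs. They are not a background without the gene. Those with 0.05% to 0.1% chromogranin held 254 of their 480 Abcc8 UMIs at E17.5 and 64 of 121 in the adult. Thinning left out 335 of the adult and 138 of the irradiated Gip cells as too shallow, and the intervals cover counting error only.

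The order of Scn3a differed from that of Abcc8, with Tph1 and then Nts cells first by the mean. Tph1 cells had 399, 419 and 366 CPM (395 ± 26.7, SD, n = 3 libraries), above the other 6 groups in each library. Nts cells followed at 94.6, 269 and 142 CPM, then Cck (101 ± 41.6) and Sct (96.3 ± 4.11). Sst, Gip and Ghrl cells were lowest, with means of 54.7 ± 10.8, 52.1 ± 4.71 and 39.7 ± 11.7 CPM and overlapping ranges. Tph1 cells were 6.93 times (5.36 to 9.12) the Gip cells at E17.5, 8.59 times (7.52 to 9.85) in adult cells and 7.32 times (6.31 to 8.54) after irradiation. After thinning, Scn3a was detected in 54.5%, 58.1% and 53.9% of Tph1 cells and in 12.1%, 7.80% and 9.79% of Gip cells, against 0.358%, 0.558% and 1.25% of the remaining cells.

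Scn9a was highest in Cck cells. They had 66.1, 13.8 and 22.4 CPM (34.1 ± 28.1), and their lowest library lay above the highest library of the next group, Tph1 cells, which had 11.8, 2.24 and 1.19 CPM. Gip cells had 3.71, 0.400 and 0.553 CPM, and no Scn9a was counted in the Nts cells of any of the 3 libraries, which number 50 to 73 cells. The ratio of Cck to Gip cells was 17.8 (6.80 to 66.4), 34.4 (8.73 to 297) and 40.5 (11.0 to 338), with 4, 2 and 2 UMIs in the Gip cells. At E17.5 other groups also carried it, namely Pyy cells (82 cells, 22.9 CPM) and insulin-led cells (116 cells, 19.7 CPM). Both carried pancreatic islet genes at 29045 and 288180 CPM summed, against 544 CPM in Cck cells, and their part in the E17.5 level of the whole class was not tested.

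**Figure D4:**
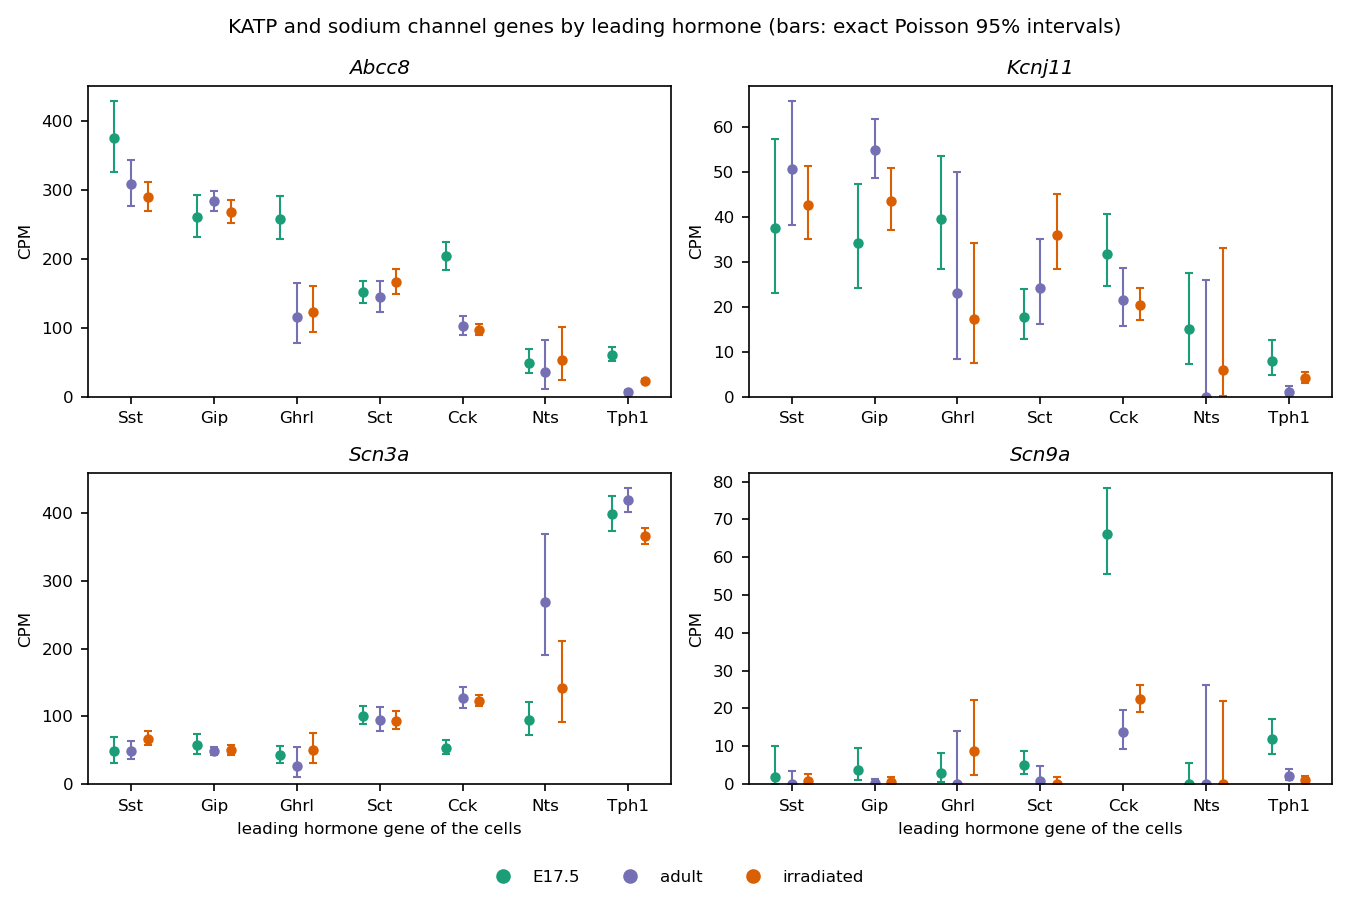
CPM of the KATP channel genes Abcc8 and Kcnj11 and the sodium channel genes Scn3a and Scn9a by leading hormone gene, for the E17.5 (green), adult (purple) and irradiated (orange) libraries, with exact Poisson 95% intervals. Tph1 cells are lowest for Abcc8 in the adult and irradiated libraries (6.72 and 22.7 CPM), with Nts cells lowest at E17.5 (49.6 CPM), and highest for Scn3a (366 to 419 CPM), and Cck cells lead for Scn9a (13.8 to 66.1 CPM).

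Of the 7 groups Sst cells had the most Cacna1d, at 46.4, 100 and 58.2 CPM, though the range overlapped that of Ghrl cells (32.5 to 57.6 CPM) and Pyy cells had 67.2 CPM at E17.5. Cacna1a was found in all 7 groups, from 121 to 240 CPM at E17.5, 328 to 842 CPM in adult cells and 253 to 937 CPM after irradiation, and neighbouring groups in the order of its means overlapped throughout. Cells with no leading hormone lay below them, at 99.4, 182 and 111 CPM. For Cacna1c, Gip and Tph1 cells were apart in the later libraries. At E17.5 Gip cells had 3.71 and Tph1 cells 4.66 CPM, a ratio of 0.797 (0.185 to 2.69). In the adult Gip cells had 63.6 and Tph1 cells 3.26 CPM, a ratio of 19.5 (11.8 to 34.6). In the irradiated adult they had 43.9 and 4.85 CPM, a ratio of 9.06 (6.60 to 12.6). Adult cells below 5000 UMIs had more Cacna1c than deeper ones, by counting interval, in 3 of 5 hormone groups and less in none. These ratios of Gip to Tph1 cells were not taken at equal depth. Outside the endocrine class, Cacna1c stood at 35.1 CPM in the 106 E17.5 cells with smooth muscle markers and at 14.0 CPM in the 844 adult cells with tuft markers.

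By the mean over libraries Kcnb2 was highest in Nts cells, at 122, 467 and 231 CPM, followed by Tph1 cells at 130, 245 and 185 CPM, which lay above Nts cells at E17.5. Ranges overlapped between neighbours in the order of the groups. Insulin-led cells reached 20 cells at E17.5 alone. Among the E17.5 groups of at least 20 cells they had the lowest level of Cacna1a (62.0 CPM) and of Scn3a (5.11 CPM). They also had 276 CPM of Abcc8 and 32.1 CPM of Kcnj11.

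Development was followed next, first from E12.5 to E17.5 within the chromogranin-high class, for which no test is possible. With 13 cells and 148056 UMIs at E12.5, 2 of 8 genes were past 2-fold, where 27.6% of features were, in one direction or the other. Abcc8 was at 493 CPM at E12.5, seen in 11 of 13 cells, and at 176 CPM at E17.5, a ratio of 0.357 (0.283 to 0.456). Scn3a was 5.45-fold higher at E17.5 taking 3 UMIs as the floor at E12.5, with a lower 95% counting limit of 4.42. Intervals of the ratios of Kcnj11, Cacna1a, Cacna1c, Cacna1d and Kcnb2 all held 1. In the remaining cells Cacna1a had 40.6 CPM at E12.5 and 12.8 CPM at E17.5, a ratio of 0.317 (0.293 to 0.342). Islet genes summed to 3310 CPM in the chromogranin-high class at E12.5 and to 27200 CPM at E17.5. Leaving out cells with at least 0.1% insulin UMIs cut the E12.5 class to 10 cells, and 3 of 8 genes were then past 2-fold. The share of all features was not taken at that setting. The part of insulin cells in the ratio of Abcc8 was not tested.

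Between E17.5 and the adult, 4 of 8 genes were past 2-fold in chromogranin-high cells, 3 of them higher and 1 lower, where 10.9% and 10.3% of features were. Cacna1c was 5.36 times (4.21 to 6.89), Cacna1a 3.22 times (3.08 to 3.36) and Kcnb2 2.87 times (2.67 to 3.08) the E17.5 level, and Scn9a was 0.186 times (0.132 to 0.256). The hormone make-up, which the sort can set, also differed: Gip cells were 6.22% of the class at E17.5 and 42.3% in the adult, so ratios were taken within hormone groups. Cacna1a was higher in the adult in 7 of 7 groups, with counting intervals above 1 and ratios of 1.72 to 3.89, and Kcnb2 in 7 of 7, with ratios of 1.89 to 3.84. Cacna1c had an interval above 1 in 4 of 7 groups and a ratio of 17.1 (6.63 to 63.3) in Gip cells. Abcc8 had an interval below 1 in 4 of 7 groups, with ratios of 0.503 in Cck, 0.446 in Ghrl, 0.823 in Sst and 0.110 in Tph1 cells, and was at 1.09 (0.956 to 1.24) in Gip cells. Scn9a was at 0.208 (0.135 to 0.311) times the E17.5 level in Cck cells.

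Depth per cell moved with these values. In adult Gip cells Cacna1a was at 1195 CPM in the 910 cells below 5000 UMIs and 335 CPM in the 194 cells at or above, and Cacna1c was at 117 and 22.0 CPM. Adult Gip cells had a median of 2526 UMIs and E17.5 Gip cells 8652. Restricted to cells with at least 5000 UMIs, an alternative chosen after seeing the data, adult over E17.5 was 2.19 times (2.08 to 2.31) for Cacna1a, 2.53 times (2.33 to 2.74) for Kcnb2 and 0.206 times (0.142 to 0.291) for Scn9a in the whole class. Cacna1c then fell short of 2-fold, at 1.94 times (1.44 to 2.63). Within the 5 hormone groups with at least 20 such cells in both libraries, Cacna1a and Kcnb2 were again higher in 5 of 5, with ratios of 1.63 to 2.48 and 1.82 to 2.53. Cacna1c had an interval above 1 in 2 of 5, with 5.88 (2.18 to 22.2) in Gip cells.

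**Figure D5:**
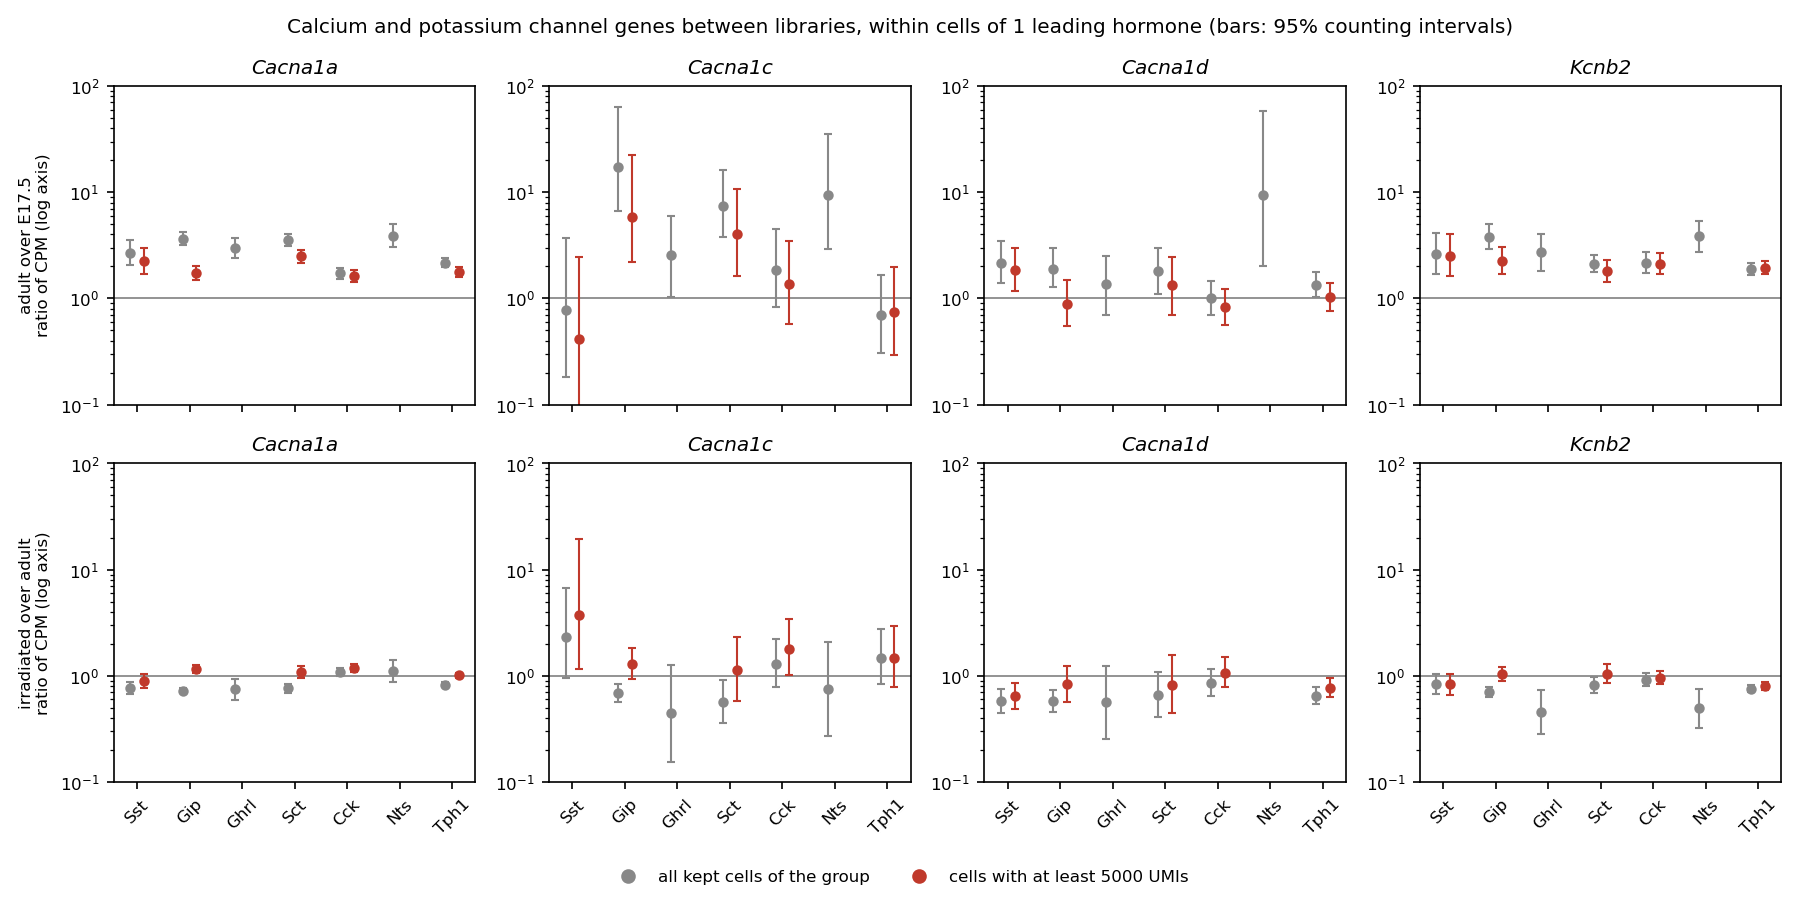
CPM ratio (log axis) of Cacna1a, Cacna1c, Cacna1d and Kcnb2, adult over E17.5 (top) and irradiated over adult (bottom), within cells of 1 leading hormone gene, for all kept cells (grey) and cells with at least 5000 UMIs (red), with 95% counting intervals; groups under 20 cells are not drawn, and a lower bar cut by the axis at 0.1 reaches below it. Cacna1a and Kcnb2 lie above 1 in every group of the top row, and in the bottom row the grey values of Cacna1a below 1 in Gip and Sct cells lie near or above 1 in red.

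The irradiated adult was compared with the adult, which is also the library used in the comparison above. None of the 8 genes was past 2-fold in chromogranin-high cells, where 1.94% of features were past 2-fold higher and 3.05% lower. On the ratio scale Cacna1c was at 0.515 (0.449 to 0.591), Cacna1d at 0.634 (0.572 to 0.703), Kcnj11 at 0.727 (0.640 to 0.827), Kcnb2 at 0.746 (0.712 to 0.782), Cacna1a at 0.753 (0.732 to 0.775) and Abcc8 at 0.778 (0.737 to 0.822). Scn3a was at 1.06 (1.01 to 1.11) and Scn9a at 2.19 (1.57 to 3.11). Gip cells were 42.3% of the adult class and 18.4% of the irradiated class, while Cck cells were 6.16% and 18.8% and Tph1 cells 25.7% and 35.3%.

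Within Gip cells, Abcc8 was at 0.945 (0.870 to 1.03) times its adult level, Scn3a at 1.02 (0.841 to 1.25), Cacna1a at 0.725 (0.685 to 0.767), Cacna1c at 0.691 (0.567 to 0.838) and Kcnb2 at 0.711 (0.639 to 0.792). In Tph1 cells Abcc8 was at 3.38 times (2.34 to 5.01) and Kcnj11 at 4.04 times (1.61 to 13.1) the adult level, from 33 and 5 UMIs in the adult, where the Abcc8 level of Tph1 cells was no higher than that of the remaining cells (7.68 CPM). Cck cells, which hold 30 of the 45 Scn9a UMIs of the adult class and 151 of the 178 of the irradiated class, had 1.63 times (1.09 to 2.50) the adult level of Scn9a. Depth again moved with the values of Cacna1a and Cacna1c, the median of the class being 3212 UMIs for the adult and 8522 after irradiation. In cells with at least 5000 UMIs, Cacna1a was at 1.08 (1.04 to 1.12), Cacna1c at 1.15 (0.921 to 1.44), Abcc8 at 0.997 (0.930 to 1.07) and Kcnb2 at 0.900 (0.851 to 0.953) times the adult level. The ratios of Cacna1a and Cacna1c, below 1 in all kept cells, lay above 1 with this choice of cells, with an interval that held 1 for Cacna1c. Cacna1d had an interval below 1 in 4 of 7 hormone groups in all kept cells, and above 1 in none. With at least 5000 UMIs the interval of Cacna1d was below 1 in 2 of 5 groups and above 1 in none, with ratios of 0.649 to 1.07.

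The genes most like each channel were sought across 30 groups of at least 30 cells (cells of 1 library and hormone, and the remaining cells of each library), by Pearson's r of log2(CPM + 10) among 13845 genes. The groups share libraries and differ in depth, so r is a description. The gene most like Abcc8 was Kcnj11 (r = 0.958), and the reverse held. For both the next were Isl1, a LIM homeobox factor of endocrine cells, at 0.919 and 0.885, and Klhdc8b at 0.894 and 0.866. Cacna1a and Kcnb2 were most like each other (0.964), followed by Kdm6b (0.949) and Abca7 (0.940) for Cacna1a and Jun (0.953) and Gse1 (0.952) for Kcnb2.

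Scn3a was most like Slc18a1 (0.930), the vesicular monoamine transporter of enterochromaffin cells, then Fsd1l (0.891) and Lhfpl2 (0.890). Scn9a was most like Crtac1 (0.889), with the next genes, Exoc7 and Hspb6, further off at 0.763 and 0.729. Cacna1c was most like Soga3 (0.870), Kmt2d (0.855) and Sfi1 (0.849), and Cacna1d most like Ip6k2 (0.883), Lrfn3 (0.854) and Rfx3 (0.850). Between Abcc8 and Scn3a r was 0.0624.

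Other genes of the same pathways were counted in the same edgeR test of chromogranin-high against remaining cells, from 10 lists that hold the members too. Of the calcium channel pores 5 of 9 tested were higher and none lower. Beside the 3 described, these included Cacna1h, a T-type pore, at a log2 difference of 4.04 ± 0.34. Of the calcium channel auxiliary subunits 4 of 8 were higher, among them Cacna2d1 (4.76 ± 0.24) and Cacnb2 (3.75 ± 0.37). Of the sodium channel pores 5 of 6 were higher, including Scn8a (3.71 ± 0.62) and Scn11a (4.26 ± 1.06). Scn11a was at 5.85 CPM in the E17.5 class and at 0 UMIs at E12.5. In the adult and irradiated classes it was at 0.186 and 0.103 CPM, the level of 3 UMIs. Of the sodium channel beta subunits Scn3b was higher (4.01 ± 0.49), whereas Scn2b was lower (-2.22 ± 0.56).

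The other KATP subunits, Abcc9 and Kcnj8, which form the vascular channel, did not pass the test (log2 differences of -3.57 ± 1.14 and -2.79 ± 0.94), and both were at 0 UMIs in the adult and irradiated libraries. Voltage-gated potassium channels had 9 of 17 higher and 2 lower (Kcnd3 and Kcns3), among the higher ones Kcnc1 at 5.53 ± 0.56. Of the calcium-activated and leak potassium channels 3 of 10 were higher, including Kcnk16 (4.28 ± 0.49), and 3 were lower (Kcnn4, Kcnk1 and Kcnk5). Of the depolarising cation channels 7 of 11 were higher, including the irritant receptor Trpa1 (6.42 ± 0.75) and Trpc1 (3.09 ± 0.32), and Piezo2 was lower. The tuft cell channel Trpm5 was at 322 CPM in the remaining adult cells and 73.3 CPM in chromogranin-high adult cells, and did not pass.

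Among genes of glucose entry, the transporter Slc2a1 was lower (-1.10 ± 0.28), and the sodium-glucose transporter Slc5a1 did not pass. Genes of regulated exocytosis were higher in 17 of 18 and lower in none, with a median log2 difference of 4.22. They included the SNARE gene Snap25 (5.45 ± 0.35), the calcium sensor Syt7 (4.10 ± 0.35), Syt13 (5.04 ± 0.32) and the granule priming factor Cadps (4.50 ± 0.25). Against these, 12.4% of all features were higher. Left without the E12.5 library, whose chromogranin-high class is 13 cells, the same test gave 5 of 9 calcium channel pores, 5 of 5 sodium channel pores, 9 of 14 voltage-gated potassium channels and 17 of 17 exocytosis genes as higher, where 16.0% of all features were, and Piezo2 was then not called.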

How the data were processed

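Sorted intestinal epithelial cells of Bmi1-GFP mice were profiled in 4 single-cell libraries, 1 per group. The authors deposited raw UMI counts per gene and barcode, unnormalized. Cell Ranger 3.1.0 and mm10 are named, per the submitters' processing notes; the counting annotation is not given in the sources used here. Totals ran from 38648331 to 90674425 UMIs per library.

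Cells needed 500 genes and at most 20% mitochondrial UMIs. Doublets stayed in, and Scrublet (scanpy 1.11.5) at 0.8% per 1000 cells removed them in an alternative. UMIs were summed per library and class and tested with edgeR 4.0.16 (R 4.3.3; TMM, library block, features with at least 10 UMIs), checked on simulated data. Between libraries, CPM ratios carry exact conditional 95% intervals that cover counting error only, with no p-value. Bounds use 3 UMIs. All 8 genes are named, with at most 4 genes a list (most UMIs) and 3 like genes each. Some genes of the lists are not reported here. Members and lists were chosen with earlier results of these data known.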

Additional observations from a re-analysis of the deposited data

Results flagged for a closer look

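A gene is listed here when its irradiated over adult ratio lay on opposite sides of 1 in cells led by different hormones, with both counting intervals off 1. These are ratios between 1 library and another, and the difference between hormone groups was not tested. Kcnj11 was at 4.04 times the adult level in Tph1 cells, from 5 UMIs at 1.02 CPM in the adult against 1.46 CPM in the remaining adult cells, and 0.794 times in Gip cells. Cacna1a was at 1.09 times in Cck cells, and at 0.746 times in Ghrl, 0.725 in Gip, 0.772 in Sst, 0.762 in Sct and 0.829 in Tph1 cells. Scn3a was at 1.38 times in Sst cells, and at 0.530 in Nts and 0.874 in Tph1 cells. In cells with at least 5000 UMIs none of these genes had groups on both sides. Kcnj11 was higher in Tph1 cells (8.43 times, 2.20 to 71.8) and had an interval that held 1 in the other 4 groups with 20 such cells in both libraries, among them Gip cells (0.815). Scn3a was higher in Sct cells (1.53 times) and held 1 in the other 4, with 1.25 in Sst and 0.955 in Tph1 cells, and Nts cells were too few. At that depth no group with 20 such cells in both libraries had a Cacna1a ratio with an interval below 1, and the ratios ran from 0.897 to 1.18.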

How the results depend on the processing

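All 8 genes kept the higher direction in chromogranin-high cells under the 19 alternatives of the edgeR and DESeq2 fits, and all 8 were called except in 3. A threshold of 0.5% called 4 (Cacna1a, Cacna1d, Scn3a and Kcnb2), no library block called 5, and leaving out libraries called 7 to 8. Features called higher and lower were 2303 and 3035. They were 1183 higher with the 0.5% threshold, 3798 and 1083 with library totals in place of TMM, and 320 and 83 without the block. Leaving out libraries gave 1095 to 2819 higher and 1076 to 3419 lower, with 1191 and 1328 without the adult, 1342 and 1339 without the E17.5 and 1095 and 1076 without the irradiated library. With library totals the median of all features moved from -0.10 to 0.47 and the higher share of calls from 43.1% to 77.8%, and the median of the 8 genes from 4.05 to 4.58. The cause of these shifts was not tested. In single libraries the 0.5% threshold left 4 of 8 past 2-fold in the adult library and 4 in the irradiated library. With CPM averaged over cells 4 genes were past 2-fold from E12.5 to E17.5, and without insulin cells 3. Without insulin cells 5 of 8 were past 2-fold higher than the rest at E12.5. Irradiated over adult had 1 gene past 2-fold with 1000 genes and 10% mitochondrial UMIs (Scn9a), on averaging CPM over cells (Cacna1c) and with a pseudocount of 0.1 CPM (Scn9a). The share of all features past 2-fold was not taken under these settings, so these counts of genes stand without it.

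The log2 ratios between hormone groups kept their direction in every alternative, all chosen after seeing the data. For Abcc8, Gip over Tph1 cells, averaging CPM over cells gave 2.42 at E17.5 and 4.10 after irradiation, 1000 genes and 10% mitochondrial UMIs gave 3.16 in the irradiated adult, and at least 5000 UMIs gave 4.69 in the adult library and 3.17 in the irradiated one. For Scn3a, Tph1 over Gip cells, the 0.5% threshold gave 2.58 and 2.54 in the adult and irradiated libraries, and removing doublets 3.42 and 3.12. For Scn9a, Cck over Gip cells, the 0.5% threshold gave 2.90 in the adult. No paired analysis was possible because the labels tie no 2 libraries together. The E12.5 class of 13 cells limits every value given for it.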

Other observations

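Values outside the comparisons above concern cells that carried markers of other lineages. The 91 chromogranin-high E17.5 cells with goblet markers had 54.2 CPM of Scn9a, 173 CPM of Abcc8 and 91.5 CPM of Scn3a. The 186 chromogranin-high E17.5 cells with islet markers had 340 CPM of Abcc8 and 9.41 CPM of Scn3a, and the 26 islet-marked cells below the chromogranin threshold still had 259 CPM of Abcc8 and 33.9 CPM of Kcnj11. Among the remaining E17.5 cells, Cacna1d stood at 25.7 CPM in 147 cells with mesenchyme markers, 23.0 CPM in 106 with smooth muscle markers and 16.0 CPM in 538 with pancreatic acinar markers, against 1.86 CPM in the 1753 cells with no such mark.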
